A study of Mus musculus with 6 samples.

Results

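The 8 genes described here encode transcription factors of the heart fields, the embryonic cell populations from which the heart forms, outside the T-box family: Hand1, Hand2, Pitx1, Gata4, Gata6, Isl1, Nkx2-5 and Mef2c. They were chosen by name with earlier results of these data known, and all 8 were found among the 21999 genes of the deposited count table. Their counts came from RNA-seq of untreated lung microvascular endothelial cells (LMVEC) of SV129/B6 mice, with 3 Ptprz1+/+ and 3 Ptprz1-/- isolations. Ptprz1 encodes a receptor-type tyrosine phosphatase. Lungs of 2 to 5 mice aged 3 to 8 weeks went into 1 isolation, and the cells were grown to confluence before they were separated on beads against CD31, a surface protein of endothelial cells.

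GATA factors bind GATA sequences and open chromatin to other factors, and Gata4 and Gata6 act together in heart and endoderm derivatives. HAND factors are basic helix-loop-helix proteins that pair with E proteins at E-boxes, and Hand2 is required for the right ventricle and is also used in limb buds and sympathetic neurons. Isl1 and Nkx2-5 are homeodomain factors of cardiac progenitors, Mef2c is a MADS-box factor of muscle that is also used in endothelium, and Pitx1 is a homeodomain factor best known from the hindlimb. In the lung, Gata6 is known from epithelium and smooth muscle, and Gata4 from mesothelium and mesenchyme.

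Between 14496881 and 17709663 reads were counted per library, so that 3 counts, the limit that a count of 0 allows, stood for 0.165 to 0.206 CPM (counts scaled to the TMM-adjusted library size), which covers counting error only. The counts of Ptprz1 were 197, 1837 and 508 in the Ptprz1+/+ libraries and 1138, 1320 and 895 in the others, so they did not separate the genotypes, and each direction below rests on the labels of the libraries. The libraries also differed in cell type markers, within each genotype and between the labels. In edgeR's quasi-likelihood test, described below, 12 of 12 endothelial and 9 of 10 fibroblast markers were lower in the libraries labelled Ptprz1-/-. Their median log2 fold changes were -1.43 and -0.54. The 7 mesothelial markers were all higher there, with a median of 2.26. None of these markers had an adjusted p-value under 0.05, and 6924 of all 13609 genes tested were lower. The summed level of 12 of 12 endothelial markers was 30.2, 36.6 and 561.4 CPM in Ptprz1+/+ replicates 1, 2 and 3 and 27.0, 17.4 and 183 CPM in the libraries labelled Ptprz1-/-, with no marker at 0 in all 6 libraries. The summed level of 10 fibroblast markers was far above that of the endothelial markers in each library, between 10970 and 27400 CPM. Most of this sum came from the collagen genes Col1a1, Col1a2 and Col3a1, at 5709, 4270 and 6851 of 18270 CPM in Ptprz1+/+ replicate 1. The sums therefore do not measure shares of cells. A lower level of a gene in a bulk library can come from fewer cells of a type or from less RNA per cell, and these cannot be told apart.

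The levels of the 8 factors were first compared with each other, on the scale of FPKM (reads scaled to gene length and library total, as deposited). Gata6 was the highest of the 8 in each of the 6 libraries, with a mean of 20.0 FPKM, above the mean of 84.6% of the genes in the table. Gata4 ranked 2 of 8 in each library, with a mean of 9.37 FPKM, above 72.4% of the genes. Mef2c followed at 2.11 FPKM, Hand2 at 1.32 and Isl1 at 0.888, and the order of these 3 changed between libraries. Hand2 was at rank 3 or 4 in the Ptprz1+/+ libraries and at rank 5 or 6 in those labelled Ptprz1-/-. Pitx1, Nkx2-5 and Hand1 had means of 0.145, 0.110 and 0.016 FPKM, at or near the limit of detection in most libraries. The ranges of Gata6 (15.9 to 26.6 FPKM) and Gata4 (3.28 to 12.7 FPKM) did not overlap, whereas the ranges of Mef2c, Hand2 and Isl1 overlapped.

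**Figure D1:**
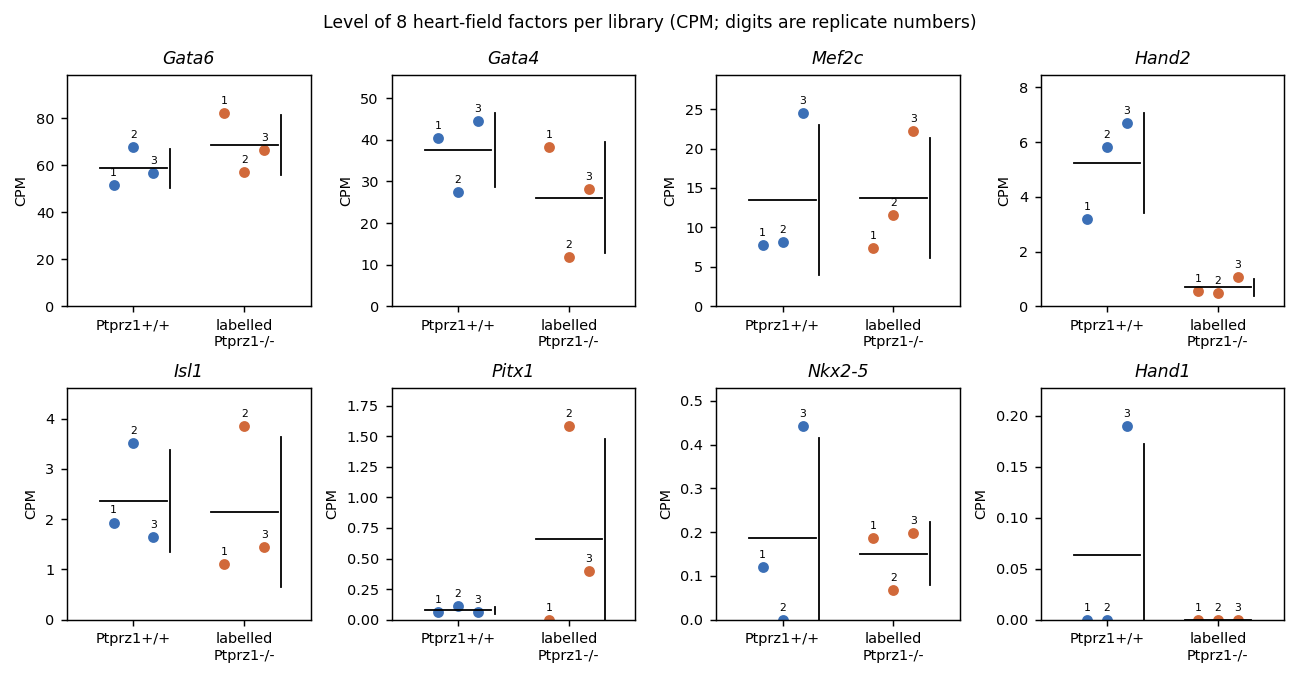
Level of each factor in CPM (vertical axis from 0, scaled per gene) in the 3 Ptprz1+/+ and the 3 libraries labelled Ptprz1-/-, 1 point per library with its replicate number, horizontal lines at the group mean and vertical lines of 1 SD cut at 0. Hand2 is at 3.20 to 6.69 CPM in the first group and at 0.480 to 1.06 CPM in the second, and the other 4 factors that were tested overlap between the groups.

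A filter on low counts kept 13609 genes for the genotype comparison, 5 of the 8 factors among them. In edgeR's quasi-likelihood test, 0 of these 5 and 0 of all genes tested (0%) had a Benjamini-Hochberg adjusted p-value under 0.05. At an unadjusted p under 0.05 it was 1 of the 5 (Hand2), against 366 of all genes (2.69%). DESeq2's Wald test put 1 of the 5, again Hand2, past the adjusted threshold and 30 genes in all (0.22%), and edgeR's likelihood ratio test put the same factor and 17 genes in all (0.125%) past it. The median log2 fold change of the 5 was -0.15, where that of all genes tested was -0.0047. Because the 8 factors were chosen with these results known, their differences are given as a description.

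Hand2 (ENSMUSG00000038193, GRCm38 chromosome 8 from 57320983 to 57324517, plus strand) was the factor with the largest difference among the 5 tested. The Ptprz1+/+ replicates 1, 2 and 3 held 53, 106 and 106 counts of it, and the libraries labelled Ptprz1-/- held 9, 7 and 16, which was 3.20, 5.83 and 6.69 CPM against 0.558, 0.480 and 1.06 CPM. All 3 libraries labelled Ptprz1-/- lay below all 3 Ptprz1+/+ libraries, as did those of 508 of the 13609 genes tested (3.73%). The means were 5.24 ± 1.82 and 0.699 ± 0.313 CPM (SD, n = 3 each), with a log2 fold change of -2.89 (standard error 0.47). A fold of 2 or more in the lower direction was reached by 510 genes (3.75%). In the higher direction, 0 of the 5 factors had a fold of 2 or more (1.76% of all genes tested) and 0 lay without overlap (3.55%), so that 1 of 5 had groups without overlap in either direction (7.28%). Counted over each group, the Ptprz1+/+ libraries held 265 counts and the others 32, a ratio of 7.50 after scaling for library size, with a 95% exact interval of 5.19 to 11.2 for counting error only. Hand2 passed the filter of 0.626 CPM in all 3 Ptprz1+/+ libraries and in 1 of those labelled Ptprz1-/-, so it was tested mainly through the group where it is high.

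Within each genotype, the order of the libraries in Hand2 was that of the summed endothelial markers, lowest to highest. Between the genotypes it was not. Ptprz1+/+ replicates 1 and 2, with summed endothelial markers of 30.2 and 36.6 CPM, held more Hand2 than the library labelled Ptprz1-/- replicate 3, where these markers reached 183 CPM. With the summed endothelial markers as a term of the fit, the log2 fold change of Hand2 was -2.73, and with each library left out in turn it lay between -3.32 and -2.68. Of the 10 fibroblast markers, 2 (Thy1 and Fbln1) were also lower without overlap in the libraries labelled Ptprz1-/-, as 3.73% of all genes tested were. Thy1 was at 313.3, 234.4 and 240.3 CPM against 111.9, 182.2 and 141.0 CPM. The marker sums do not measure shares of cells, and the part of endothelial, fibroblast or other cell content in the Hand2 level was not tested.

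The 250 bases before the start of Hand2 are shown because a divergent gene begins in them and is described next. The sequence is RefSeq's, on GRCm38.p6 (chr8:57320733-57320982, plus strand, 5′ to 3′), and capitals mark GATAA on either strand (GATAA as read, TTATC for the opposite strand).
Hand2: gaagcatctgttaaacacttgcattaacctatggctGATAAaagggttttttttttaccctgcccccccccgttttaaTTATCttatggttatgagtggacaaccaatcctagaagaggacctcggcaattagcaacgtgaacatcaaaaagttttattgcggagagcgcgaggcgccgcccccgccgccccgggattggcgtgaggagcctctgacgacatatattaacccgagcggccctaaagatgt
The plus-strand match lay from -214 to -210 and the other from -172 to -168 relative to the start. At least 1 GATAA, the core that GATA factors bind, was held by 22.6% of the 32851 windows of this length and at least 2 by 4.28%, counting both strands. The Hand2 window also held 2 matches to CANNTG, the E-box pattern, as 31.8% of windows did with 2 or more, and 2 to CCAAT (10.1%). These are letter matches in 1 window and were not tested as binding sites.

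Of the 8 factors, 4 had such windows in the table used here. The Isl1 window held 1 GATAA, 1 CANNTG and 2 CCAAT, and the Nkx2-5 window held 0, 1 and 0. Mef2c had 3 windows, for 3 starts, of which 1 held 2 GATAA matches and the others 0.

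Both genes closest to Hand2 were also lower in the libraries labelled Ptprz1-/-. RP24-459A4.1 (ENSMUSG00000100510, a transcript without coding potential named Hand2os1 in GENCODE M21) lies on the minus strand of chromosome 8 from 57304265 to 57320859. It therefore starts at the higher coordinate, with 123 bases between its start and Hand2 in the deposited coordinates. RP24-459A4.1 had 6, 14 and 5 counts in the Ptprz1+/+ libraries and 0, 0 and 0 in the others. That is at least 7.55-fold lower when 3 counts over the group are taken as the floor. On the other side, 7600 bases past the end of Hand2, the long intergenic RNA 5033428I22Rik (chromosome 8 from 57332118 to 57340682, plus strand) had 5, 11 and 5 counts against 0, 2 and 0. That is 21 against 2 counts, a ratio of 9.51 with a 95% interval of 2.33 to 83.7 for counting error only. Neither gene passed the filter on low counts, and both had their highest count in Ptprz1+/+ replicate 2. In later gene models Hand2os1 extends across Hand2 on the opposite strand, so the reads of the pair are uncertain where counting did not use strand, which is not given in the sources used here.

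The next genes along the chromosome moved in both directions. Within 200 kb of Hand2, 7 other genes were in the table, and besides the closest pair none was lower in all 3 libraries labelled Ptprz1-/-, where 745 of all 21999 genes were (3.39%). Sap30, which encodes a subunit of a histone deacetylase complex, lies about 158 kb away and was higher in all 3 of them, at 18.4, 19.7 and 12.6 CPM against 30.3, 26.2 and 22.5 CPM (log2 fold change 0.64, standard error 0.22). Hmgb2, which encodes a chromatin protein, had a lower mean in the libraries labelled Ptprz1-/-, but its groups overlapped, at 245, 1844 and 213 counts against 378, 175 and 306, with the high value in Ptprz1+/+ replicate 2 (log2 fold change -1.22, standard error 0.82). Scrg1 held 13 counts in one group and 11 in the other, and the log2 fold changes of 2500002B13Rik and Galnt7 were 0.72 (standard error 0.39) and 0.12 (standard error 0.17). Over all 8 factors, 43 neighbouring genes were in the table. The 2 beside Hand2 were the ones lower without overlap, and 5 of the 43 were higher without overlap, where 713 of all 21999 genes were (3.24%).

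**Figure D2:**
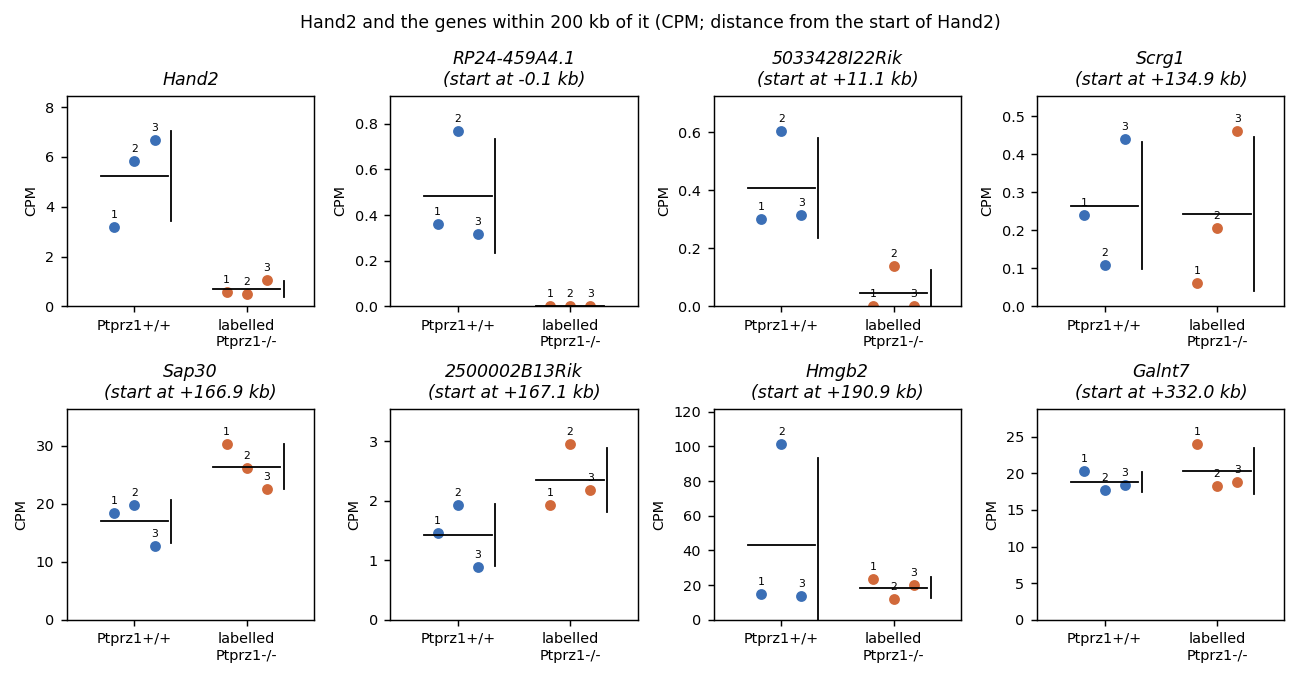
Level in CPM (vertical axis from 0, scaled per gene) of Hand2 and of the 7 genes within 200 kb, with the distance of each start from the start of Hand2, 1 point per library with its replicate number, group means as horizontal lines and 1 SD as vertical lines cut at 0. RP24-459A4.1 and 5033428I22Rik are low in the libraries labelled Ptprz1-/- as Hand2 is, whereas Sap30 is higher there and the other 4 genes overlap between the groups.

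Hand1 (ENSMUSG00000037335, chromosome 11 from 57828705 to 57832818), the paralog of Hand2 that marks the left ventricle and extraembryonic tissue, was close to absent from the counts. It had 0, 0 and 3 counts in the Ptprz1+/+ libraries and 0 in each of the others. Both groups were at or under the floor of 3 counts, so no fold is given, and a difference was not detectable at this depth. Twist1 and Twist2, relatives of the HAND factors that mark mesenchyme, were well expressed by comparison, with a mean of 22.8 FPKM for Twist1.

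Gata4 (ENSMUSG00000021944, chromosome 14 from 63198922 to 63271692) had 669, 501 and 706 counts in the Ptprz1+/+ libraries and 615, 172 and 428 in the others. On the CPM scale this was 40.4, 27.5 and 44.5 against 38.2, 11.8 and 28.3, with the lowest value of each genotype in replicate 2. The groups overlapped, since the library labelled Ptprz1-/- replicate 1 lay above Ptprz1+/+ replicate 2. The means were 37.5 ± 8.87 and 26.1 ± 13.3 CPM (SD, n = 3 each), and the log2 fold change was -0.52 (standard error 0.42). Leaving out replicate 2 of the libraries labelled Ptprz1-/- gave -0.18, and leaving out their replicate 1 gave -0.90.

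Gata6 (ENSMUSG00000005836, chromosome 18 from 11052510 to 11085635) had 858, 1231 and 898 counts in the Ptprz1+/+ libraries and 1326, 832 and 1010 in the others. It was the steadiest of the 5 tested factors, at 51.8, 67.7 and 56.7 CPM against 82.3, 57.1 and 66.7 CPM, and the groups overlapped. The log2 fold change was 0.23 (standard error 0.18), with means of 58.7 ± 8.12 and 68.7 ± 12.7 CPM (SD, n = 3 each). It fell to 0.08 without the library labelled Ptprz1-/- replicate 1, which held the highest Gata6 level. In that library the 7 mesothelial markers, none at 0 in all libraries, summed to 1488 CPM. The sums were 239.5, 61.5 and 98.9 CPM in Ptprz1+/+ replicates 1, 2 and 3, and 125.7 and 301.3 CPM in the other libraries labelled Ptprz1-/-. Among the libraries labelled Ptprz1-/- the order of these sums was that of Gata6, and among the Ptprz1+/+ libraries it was the reverse. The part of these markers in the Gata6 level was not tested. The divergent long intergenic RNA 1010001N08Rik, which overlaps the start of Gata6 by 58 bases, had 33, 57 and 34 counts against 81, 40 and 47, with the same libraries high in each group as for Gata6 (log2 fold change 0.58, standard error 0.36).

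Mef2c (ENSMUSG00000005583, chromosome 13 from 83504034 to 83667079) varied more between replicates than between genotype means. It had 128, 149 and 388 counts in the Ptprz1+/+ libraries and 120, 168 and 336 in the others, or 7.73, 8.19 and 24.5 CPM against 7.44, 11.5 and 22.2 CPM. Replicate 3 was highest in both genotypes, 2.99 times the next Ptprz1+/+ library and 1.93 times the next library labelled Ptprz1-/-. These were also the libraries with the highest summed endothelial markers, at 561.4 and 183 CPM, and the highest summed fibroblast markers, at 25910 and 27400 CPM. Among the Ptprz1+/+ libraries the order in Mef2c was that of the endothelial sums. Among those labelled Ptprz1-/- it was not, since replicate 2 held more Mef2c than replicate 1 at a lower endothelial sum (17.4 against 27.0 CPM). The log2 fold change with genotype was 0.03 (standard error 0.59) and it was -0.51 when replicate 3 of the libraries labelled Ptprz1-/- was left out and 0.79 when Ptprz1+/+ replicate 3 was, so that a difference of either sign lies within its error. With the summed endothelial markers as a term of the fit it was 0.50 (standard error 0.27). The part of endothelial, fibroblast or other cell content in the Mef2c level was not tested.

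**Figure D3:**
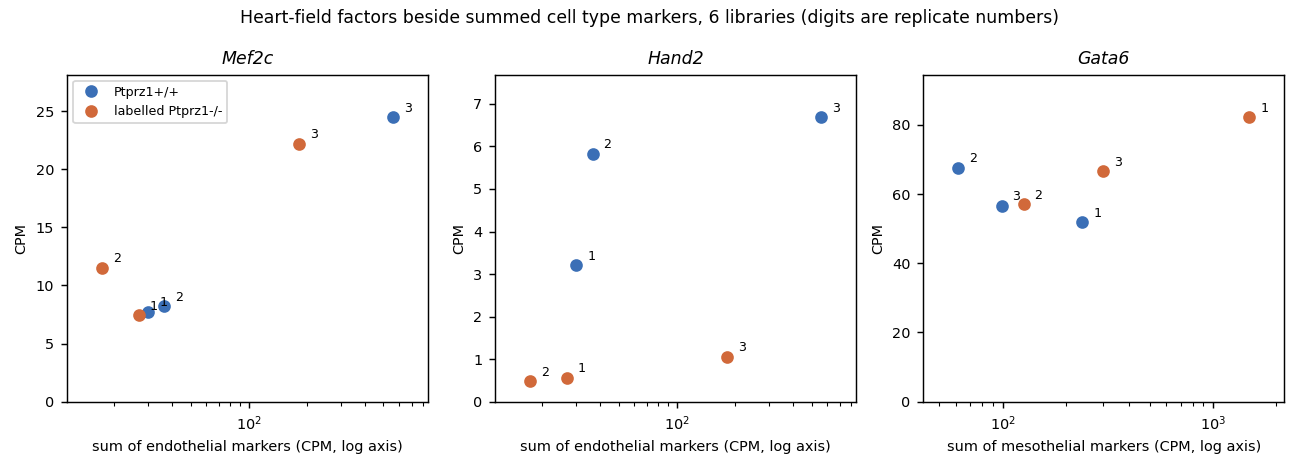
Level of Mef2c, Hand2 and Gata6 in CPM (vertical axes from 0) against the summed CPM of endothelial markers (Mef2c and Hand2) or mesothelial markers (Gata6) on a log axis, 1 point per library with its replicate number. Mef2c is highest in the replicate 3 libraries, where the endothelial sum is 561.4 and 183 CPM. Hand2 is lower in each library labelled Ptprz1-/- than in any Ptprz1+/+ library. The part of cell content in these levels was not tested.

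Isl1 (ENSMUSG00000042258, chromosome 13 from 116298281 to 116309689), the LIM-homeodomain factor of the second heart field, also followed the replicates. It had 32, 64 and 26 counts against 18, 56 and 22, or 1.93, 3.52 and 1.64 CPM against 1.12, 3.84 and 1.45 CPM. Replicate 2 was highest in both genotypes, 1.82 and 2.65 times the next library, and the groups overlapped. The log2 fold change of -0.15 (standard error 0.57) had no steady sign when single libraries were left out, with 0.25 without Ptprz1+/+ replicate 2 and -0.88 without the library labelled Ptprz1-/- replicate 2.

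Nkx2-5 (ENSMUSG00000015579, chromosome 17 from 26838664 to 26841565), the homeodomain factor of cardiac progenitors and cardiomyocytes, had 2, 0 and 7 counts against 3, 1 and 3. With 9 against 7 counts in all, the ratio was 1.17 with a 95% interval of 0.386 to 3.68 for counting error only, and it was not tested. Pitx1 (ENSMUSG00000021506, chromosome 13 from 55825051 to 55836192) had 1, 2 and 1 counts in the Ptprz1+/+ libraries and 0, 23 and 6 in the others. Of the 29 counts of the second group, 23 came from replicate 2, at 1.58 CPM, and replicate 1 of the same label held 0, so the groups overlapped. The ratio of Ptprz1+/+ to the others was 0.125 with a 95% interval of 0.0319 to 0.356, which covers counting error only and not the spread between the libraries. Pitx1 did not pass the filter and was not tested.

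**Figure D4:**
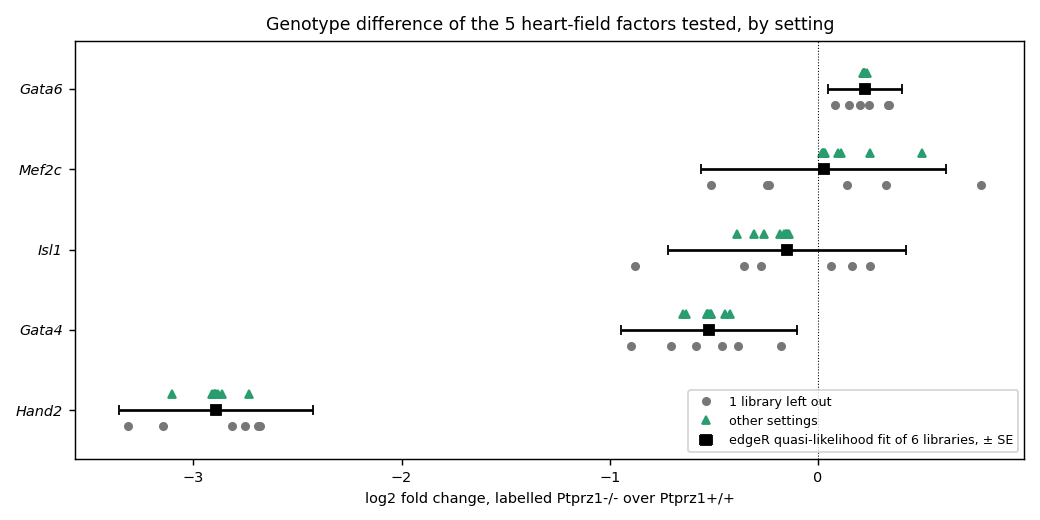
Log2 fold change (libraries labelled Ptprz1-/- over Ptprz1+/+, horizontal axis) of the 5 factors tested, as squares with 1 standard error from edgeR's quasi-likelihood fit of 6 libraries, circles for the 6 fits that each left out 1 library and triangles for the other settings. Hand2 lies between -3.32 and -2.68 throughout, and Isl1 and Mef2c lie on both sides of 0.

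Relatives of the factors in the same families were compared next. Of 13 listed, 10 were in the table and 7 were tested, with 0 past the adjusted threshold in edgeR's quasi-likelihood test and a median log2 fold change of 0.03. Twist1, Mef2d (20.8 FPKM) and Mef2a (19.2 FPKM) were at levels like that of Gata6, so Mef2c was the lowest of the 3 MEF2 genes that were tested. Gata2, a GATA factor of endothelium and blood, had a mean of 8.51 FPKM, close to Gata4. Gata5, the remaining GATA factor of the heart, was the relative with a fold of 2 or more, at 4, 17 and 2 counts against 42, 6 and 17 (log2 fold change 1.64, standard error 0.91). The groups overlapped. With single libraries left out, the value was lowest, at 0.80, without replicate 1 of the libraries labelled Ptprz1-/-, which held the most mesothelial marker RNA, and highest, at 2.86, without Ptprz1+/+ replicate 2. Among the libraries labelled Ptprz1-/- the order in Gata5 was that of the summed mesothelial markers. Among the Ptprz1+/+ libraries it was not, since replicate 2 held the most Gata5 at the lowest mesothelial sum (61.5 CPM). The part of these markers in the Gata5 counts was not tested.

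**Figure D5:**
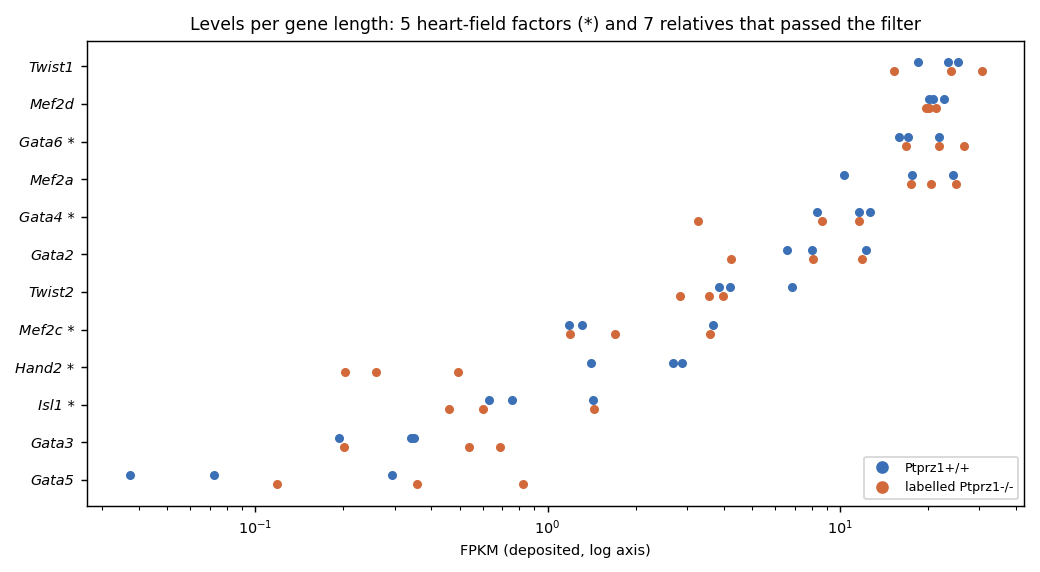
Deposited FPKM (log axis) of the 5 tested factors, marked with an asterisk, and of 7 tested relatives in their families, 1 point per library, ordered by mean. Gata6 lies with Twist1, Mef2d and Mef2a near 20 FPKM, and Hand2 is the factor whose libraries separate by label.

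Protein partners and repressors of the 8 factors were all in the table (14 of 14), and 13 were tested. The highest by FPKM were Ldb1, the LIM-domain cofactor of Isl1, at 61.8, Tcf3, an E protein that pairs with HAND factors, at 35.5, and Hdac7, a repressor of MEF2, at 30.8. Zfpm2, the cofactor of Gata4, was at 11.5 FPKM. None of the 13 passed the adjusted threshold in edgeR's quasi-likelihood test. Smyd1, a muscle methyltransferase and target of Mef2c, had 11, 2 and 9 counts against 48, 7 and 15 (log2 fold change 1.73, standard error 0.87), with values from 0.72, when replicate 1 of the libraries labelled Ptprz1-/- was left out, to 2.14, when their replicate 2 was. Hdac9, another repressor of MEF2, had 25, 150 and 107 counts against 18, 25 and 56 (log2 fold change -1.34, standard error 0.72), with values between -1.96 and -0.93 when single libraries were left out.

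Of 15 signalling genes known upstream of these factors, 13 were in the table and 10 were tested, again with 0 past the threshold, and their median log2 fold change was 0.04. The highest by FPKM were Bmpr1a at 25.6, Smad1 at 20.9 and Bmp4 at 18.6, all of the BMP pathway that induces Hand2 and the GATA factors in the embryo. Bmp4 spread widely between libraries, at 12.8, 3.17 and 26.8 FPKM against 36.9, 6.75 and 25.3 FPKM, with replicate 2 lowest in both genotypes. Bmp2, a ligand of the same pathway, was the only one with a fold of 2 or more, at 24, 615 and 131 counts against 13, 30 and 176 (log2 fold change -1.59, standard error 1.29). That value turned on single libraries, since it was -0.01 without Ptprz1+/+ replicate 2 and -3.34 when replicate 3 of the libraries labelled Ptprz1-/- was left out. The endothelin receptor gene Ednra, upstream of Hand2 in the branchial arches, had a wide error (log2 fold change 0.11, standard error 0.64).

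The cardiac genes known as targets of these factors were low. Of 19, 17 were in the table and 4 were tested, with a median log2 fold change of -0.05 over those 4 and 0 past the threshold. The highest by FPKM were Slc8a1, the sodium-calcium exchanger, at 5.00, Tnni3, cardiac troponin I, at 2.63, and Myl4, an atrial light chain, at 0.899. The summed level of the 17 was 17.7 to 45.0 CPM in the Ptprz1+/+ libraries and 19.2 to 24.7 CPM in the others. Of the 17, 2 were lower without overlap in the libraries labelled Ptprz1-/-, where 745 of all 21999 genes were (3.39%). Neither of the 2 passed the filter on low counts. Tnnt2, cardiac troponin T, had 6, 11 and 156 counts against 3, 2 and 4, with most of its reads in Ptprz1+/+ replicate 3, the library at the top of the summed range. Its groups were parted near the floor, by 0.362 CPM in Ptprz1+/+ replicate 1 against 0.264 CPM in the library labelled Ptprz1-/- replicate 3. Hcn4, a pacemaker channel gene, had 4, 3 and 5 counts against 0, 0 and 1.

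For each tested factor, the genes whose log2 CPM was most like it over the 6 libraries were taken from 10650 genes with a mean of 5 CPM or more. With 6 points and this many genes high coefficients are easily reached, and they are given as a description. Hand2 was most like Bace2, a membrane protease gene (r = 0.99, rho = 1.00, n = 6 libraries), at 6.58, 14.1 and 15.5 CPM against 2.05, 1.79 and 4.23 CPM, followed by Gpx3 and Gcnt1 (r = 0.98 for both). Bace2 kept an r of 0.99 when each gene was centred within its genotype, whereas Gpx3 dropped to 0.75 and Gcnt1 to 0.83. Isl1 was most like Cenpb, Fosl1 and Abcb1b, of which Fosl1, an AP-1 factor, was at 18.3, 48.5 and 14.0 CPM against 7.32, 43.9 and 9.97 CPM, with replicate 2 highest in both genotypes. Mef2c was most like Kdm5a, Gpc6 and Zfp12, of which Gpc6, a glypican gene, was at 49.8, 49.4 and 174.6 CPM against 38.3, 78.9 and 167 CPM, with replicate 3 highest. Gata4 was most like Ptdss2, Copg2 and Meg3, and Meg3, an imprinted long noncoding RNA, was at 158.8, 108.7 and 156.3 CPM against 160.9, 46.5 and 141.9 CPM. Gata6 was most like Abtb1 and Usp54. Between the factors themselves the closest pair was Gata4 with Isl1, in opposite directions (r = -0.73, n = 6 libraries), then Hand2 with Gata4 (r = 0.53), and the other pairs lay between -0.39 and 0.16.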

How the data were processed

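RNA of 6 LMVEC libraries was analysed from 1 table, in which the authors deposited read counts, not normalized, for each gene on GRCm38 coordinates. The FPKM values were computed by the authors per gene length and library total. The submitters' processing notes name STAR, HTSeq, TopHat, DESeq2, edgeR, GRCm38 and mm10 without versions or roles. The authors' comparison columns (mean signal, log2 fold change and p-value) and the 3 deposited lists of called genes were not used here.

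Here, counts were normalized (TMM), filtered (filterByExpr, minimum count 10) and compared by edgeR 4.0.16 under R 4.3.3 (glmQLFit, glmQLFTest, genotype as the only term, Benjamini-Hochberg threshold of 0.05). Each standard error was taken as |log2 fold change| over the root of the F statistic. The functions were tested on simulated data. Alternatives were DESeq2 1.42.0, limma 3.58.1 voom, edgeR's likelihood ratio test, other normalizations and filters, left-out libraries, the replicate block and an endothelial marker term. Total counts per library were 14496881 to 17709663, and genes of few reads are correspondingly imprecise. Replicates are separate isolations, and 0 pairs of libraries held identical counts.

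The 8 factors and the gene lists were chosen with earlier results of these data known. Named are the 8 factors, the genes of the lists with a fold of 2 or more or among the highest 3 by level, neighbours within 200 kb, and the 3 genes most like each tested factor. Gata2, Mef2a, Twist2, Zfpm2, Ednra, Tnnt2 and Hcn4 were added after their values were seen. Some genes that this rule names are not reported here. Sequences before gene starts are RefSeq's for GRCm38.p6 and were matched by symbol for 4 of the 8 factors.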

Additional observations from a re-analysis of the deposited data

How the results depend on the processing

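By edgeR's quasi-likelihood test 0 genes passed the adjusted threshold, and 0 under each alternative (0 to 0 when each library was left out) except 30 with DESeq2 and 17 with the likelihood ratio test. The number of the heart-field factors past it was 1 with each of these and 0 otherwise (0 to 0 with each library left out). Unadjusted p-values under 0.05 rose from 366 genes to 676 without Ptprz1+/+ replicate 1. Hand2, at -2.89, was -2.91 with DESeq2, and was not tested with at least 10 counts in every library. Hand2, Gata4 and Gata6 kept their sign in all fits that tested them. With 1 library left out, Isl1 ranged from -0.88 to 0.25 and was above 0 without Ptprz1+/+ replicate 2 (0.25) or, of the libraries labelled Ptprz1-/-, replicate 1 (0.16) or 3 (0.06). Mef2c ranged from -0.51 to 0.79 and was below 0 without Ptprz1+/+ replicate 1 (-0.25) or 2 (-0.24) or, of the other label, replicate 3 (-0.51). The cause was not tested. The values of Gata5, Smyd1, Hdac9, Bmp2 and 1010001N08Rik were recomputed after the data were seen and kept their sign.

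The replicate numbers mark separate isolations and were not used as pairs in the main fit. Deviations from the group means correlated at 0.46, -0.06 and 0.53 between libraries of the same number for replicates 1, 2 and 3. Between libraries of different numbers the correlations lay from -0.58 to 0.08. Deviations from the group means sum to 0 within each genotype, so these correlations depend on each other. Whether libraries of the same number shared a source of their deviations was not tested. With the replicate block, 0 genes and 0 of the factors passed, with 690 genes at an unadjusted p under 0.05, and the log2 fold changes were -2.89 for Hand2, -0.65 for Gata4, 0.22 for Gata6, -0.26 for Isl1 and 0.10 for Mef2c. Depth limits Hand1, Pitx1 and Nkx2-5, which were fitted only without a filter on low counts.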
